A study of Mus musculus with 24 samples.

Results

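The 10 immediate early genes described are Egr1, Egr2, Egr3, Fos, Fosb, Fosl2, Jun, Junb, Ier2 and Ier3, read by symbol from a table of 26264 genes. They were chosen on a measured value: Egr1 was lower with IAA in the UTX-AID clone after 3 h of RA, and the other 9 members of its class were taken to see whether they followed. The Egr1 value in that comparison is therefore given as a description, and the tests concern the other members, the other RA times and the other clone.

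Poly(A) RNA was sequenced from mouse ESCs (embryonic stem cells) kept on gelatin with serum and LIF, the cytokine that holds them undifferentiated. In BAP1-AID cells the HA-AID tag (a degron) follows the C-terminus of BAP1, the deubiquitinase that removes ubiquitin from histone H2A at K119, and in UTX-AID cells it precedes the N-terminus of UTX, the H3K27 demethylase encoded by Kdm6a. Both lines also overexpress TIR1 stably, so that IAA (auxin) sends the tagged protein to degradation, and each line is 1 clone, so clone and tagged gene cannot be told apart. Each clone was profiled without IAA (−IAA) and with IAA given ahead of RA (+IAA), at 0, 3 and 6 h of RA, with 2 libraries in each of 12 groups and 24 libraries in all. RA (retinoic acid) was given without LIF, so the effects of RA and of LIF removal cannot be told apart, and no vehicle for the −IAA cells is stated in the sources used here. The labels do not say that the 2 libraries of a group came from separate cultures, and p-values then measure only the spread between these libraries.

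Immediate early genes are transcribed within minutes of a growth factor or stress signal without new protein synthesis, mostly through ERK kinases acting on SRF and its ELK cofactors at the CArG box and on CREB at the CRE. EGR proteins are zinc finger transcription factors that bind GC-rich sites, whereas FOS and JUN proteins pair as leucine zipper dimers to form AP-1. ESCs are known for signalling through FGF4 and ERK, which LIF and the pluripotency network counterbalance.

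Library totals were 42018795 to 54034789 counts, at which 3 counts, the floor used below for a gene at 0, corresponded to 0.0545 to 0.0695 CPM (counts scaled by library total and by TMM factors over all libraries). All 8 ESC markers were present in every library, with Nanog, the lowest, at 77.1 CPM or more. The 7 fibroblast markers summed to 9.87 to 14.4 CPM in BAP1-AID, to 5.14 to 8.73 CPM in UTX-AID −IAA and to 4.29 to 5.82 CPM in UTX-AID +IAA, with the collagens Col1a1, Col1a2 and Col3a1 at 0.521 CPM or less, and none of the 6 tested in UTX-AID passed for IAA. The 5 endoderm markers summed to 2.12 to 8.13 CPM. Bap1 mRNA was 93.3 to 104.5 CPM in BAP1-AID −IAA and 93.7 to 105.5 CPM in BAP1-AID +IAA. Kdm6a mRNA was 93.5 to 114.2 CPM in UTX-AID −IAA and 106.8 to 125.0 CPM in UTX-AID +IAA. These levels do not check a treatment that acts on protein. In the clone where it is not tagged, Kdm6a was higher with IAA (59.5 to 75.4 against 77.9 to 103.6 CPM), whereas Bap1 overlapped between the arms (67.92 to 86.96 and 73.56 to 86.85 CPM). The aryl hydrocarbon receptor target Cyp1a1 was higher with IAA in both clones, by 5.16 ± 0.37 (SE) on the log2 scale in BAP1-AID and 5.80 ± 0.63 in UTX-AID at 0 h, a gene that neither tag targets.

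Promoters of 3 members are printed below, chosen by motif. Egr2 carries the CArG box of this gene class and Ier2 carries the CRE. Junb, lower with IAA in BAP1-AID at all 3 times by edgeR, has no exact match to either in the window searched. Each line runs from 100 bases before to 20 bases after the annotated start site on GRCm39 (mm39), and capitals mark the matched motif.
Egr2, chr10:67373592-67373711, + strand: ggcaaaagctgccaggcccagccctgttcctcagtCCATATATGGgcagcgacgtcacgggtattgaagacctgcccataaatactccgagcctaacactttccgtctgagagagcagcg
Ier2, chr8:85389464-85389583, − strand: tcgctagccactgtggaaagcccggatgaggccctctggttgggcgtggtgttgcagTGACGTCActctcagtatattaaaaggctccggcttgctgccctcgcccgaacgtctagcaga
Junb, chr8:85705328-85705447, − strand: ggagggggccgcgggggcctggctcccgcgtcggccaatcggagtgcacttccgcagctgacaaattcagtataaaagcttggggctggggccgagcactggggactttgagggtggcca
The CArG box (by its consensus, both strands) was found in 1 of the 9 member windows searched (300 bases, 250 before to 50 after the start site), Egr2, and in 1.54% of the 21751 windows of all protein-coding genes. It began 65 bases before the start site. The CRE (TGACGTCA) was found in 1 member, Ier2, 43 bases before the start site, against 2.45% of all windows. The EGR site (GCGNGGGCG, both strands) was found in 1 member, Fosb, against 6.22% of all windows, and the AP-1 site (TGANTCA) in 0 members against 7.15%. No 2 of these matches overlapped. Only exact matches were counted, so near matches and sites outside the window were not searched.

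The genes are spread over 9 chromosomes. Junb (chromosome 8, 85701113 to 85705359, − strand) overlaps the protein-coding gene Prdx2 on the other strand, and Jun overlaps the lncRNA Junos, Egr2 overlaps Gm66196, Fosl2 overlaps Gm72529 and Ier3 overlaps Gm66231, each on the other strand. Whether reads were assigned by strand is not given in the sources used here, so the counts of these 5 genes may hold reads of their partners. Egr1 (chromosome 18, 34992876 to 34998049), Ier2 (chromosome 8, 85387960 to 85389483) and Fos (chromosome 12, 85520658 to 85524047) overlap no annotated gene.

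Levels between genes were compared per length, as CPM per kb of transcript. In BAP1-AID cells without IAA or RA, Ier2, a short nuclear protein gene, stood first at 73.3 ± 1.1 (SD, n = 2), and Ier3, an inhibitor of apoptosis and NF-κB signalling, was next at 10.7 ± 1.8. Egr1 followed at 8.50 ± 0.48, Junb at 5.06 ± 0.44 and Jun at 3.67 ± 0.15. Fos was at 0.669 ± 0.11, Fosl2 at 0.285 ± 0.027 and Egr3 at 0.121 ± 0.036, while Egr2 was at 0.0327 ± 0.0087 and Fosb was at 0 in both libraries. No neighbours in that order had overlapping libraries. In UTX-AID cells Ier2 (48.6 ± 1.7) and Ier3 (18.6 ± 1.8) again led, but Junb (4.73 ± 0.088) stood above Egr1 (4.001 ± 0.39). Jun (1.51 ± 0.25) and Fos (0.632 ± 0.083) came next, and the libraries of Fosl2 (0.170 ± 0.094) and Fosb (0.151 ± 0.0054) overlapped. Unstimulated ESCs therefore held 5 members at over 1 CPM per kb and the other 5 under it in both clones.

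The counts behind the lower members were small. Egr2 was at 0 in 10 of the 24 libraries and never above 24 counts, Fosb was at 0 in 7 libraries with at most 44 counts, and Egr3 was at 0 in 4 libraries with at most 36 counts. Fos ranged from 10 to 80 counts with a median of 33.5, and Fosl2 from 24 to 117. By contrast, Egr1 ranged from 315 to 2016 counts, Jun from 146 to 662, Junb from 241 to 544, Ier3 from 288 to 1100 and Ier2 from 3297 to 7297. All 10 members passed the filter on low counts in BAP1-AID and in the fit of all libraries, and 9 did in UTX-AID, where Egr2 was left out.

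**Figure D1:**
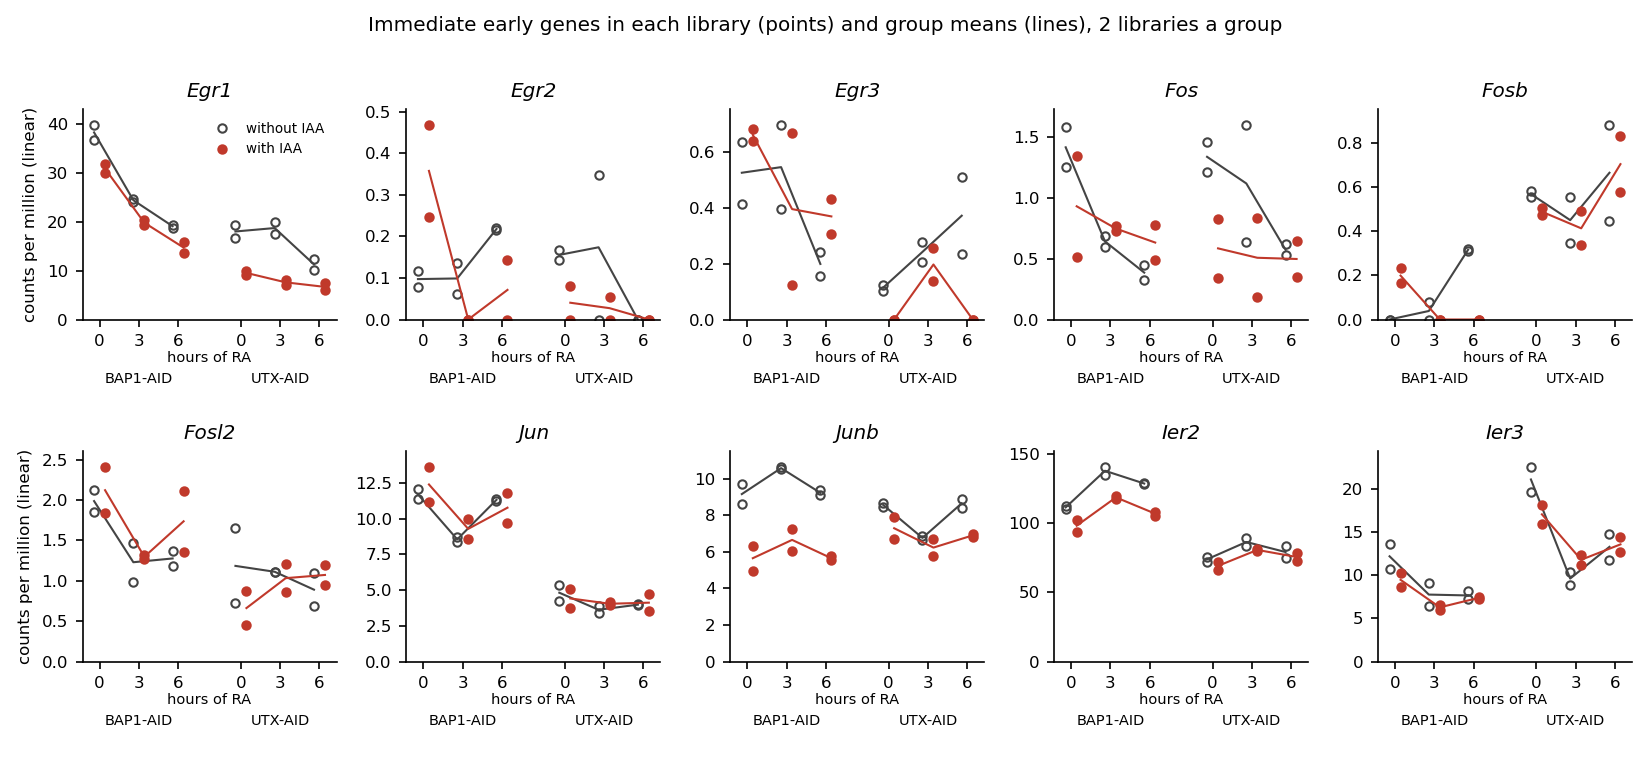
Each panel plots 1 gene in CPM (linear axis from 0, its own scale) against hours of RA, BAP1-AID at left and UTX-AID at right. Points are single libraries, open without IAA and filled with IAA, and lines join the means of 2 libraries. Egr1 in UTX-AID lies between 10.2 and 19.97 CPM without IAA and between 5.96 and 9.98 CPM with IAA.

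The first comparison asks whether IAA moved these genes in the UTX-AID clone. Egr1, a zinc finger activator, had 922 and 815 counts without IAA and 526 and 449 with IAA at 0 h. At 3 h it had 752 and 972 counts without IAA and 446 and 357 with IAA. At 6 h it had 560 and 521 counts without IAA and 315 and 357 with IAA. The +IAA libraries were below the −IAA libraries at all 3 times without overlap. The mean level was 17.99 ± 1.7 CPM (SD, n = 2) against 9.52 ± 0.66 CPM at 0 h, 18.7 ± 1.8 against 7.59 ± 0.73 at 3 h and 11.3 ± 1.5 against 6.66 ± 0.99 at 6 h. The log2 fold change at 3 h, by which Egr1 was chosen, was −1.30 ± 0.15 (SE). In the libraries not used for that choice it was −0.92 ± 0.15 at 0 h, where it passed by edgeR's quasi-likelihood test (Benjamini-Hochberg adjusted p = 0.044), and −0.75 ± 0.15 at 6 h, where it did not (adjusted p = 0.18). The call at 0 h was lost without −IAA replicate 1 (−0.81, adjusted p = 0.17), without +IAA replicate 1 (−0.999, adjusted p = 0.21) or without +IAA replicate 2 (−0.85, adjusted p = 0.34). The fibroblast marker sum given above had a median of 5.04 CPM in the +IAA libraries against 7.95 CPM without IAA, with ranges that overlapped. Its part in the Egr1 values was not tested. In bulk RNA, fewer cells that express a gene and less RNA per cell cannot be told apart.

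None of the other 8 members tested passed in UTX-AID at any time. At 3 h, with Egr1 set aside because it was chosen there, 0 of these 8 passed (edgeR), against a background of 0.184% of 16268 genes lower and 0.0799% higher, with 0 of the 8 at an unadjusted p under 0.05 and 0 by DESeq2. At 0 h Egr1 was the 1 of 9 members that passed (0.0246% of genes lower, 0.0184% higher), and at 6 h 0 members did by edgeR (0.0123% lower, 0.0184% higher), with 2 members, Egr1 and Egr3, at an unadjusted p under 0.05, while DESeq2 passed Egr1. Adjusted p-values of the other 8 members were 0.538 to 0.999 over the 3 times.

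Among the other zinc finger genes, Egr3 had 6 and 5 counts without IAA and 0 in both libraries with IAA at 0 h, at least 1.94-fold lower against the floor of 3 counts per library. It had 12 and 10 counts against 14 and 7 at 3 h, and 23 and 12 against 0 and 0 at 6 h, at least 6.25-fold lower. The Egr3 groups thus overlapped at 3 h, the time at which Egr1 was chosen, and its adjusted p was 0.54, 0.98 and 0.56 at 0, 3 and 6 h by edgeR. An "at least" value, here and below, is the observed mean level over the floor. It does not allow for the spread of small counts. Egr2, which was not tested in this clone, had 8 and 7 counts without IAA against 0 and 4 with IAA at 0 h, 15 and 0 against 3 and 0 at 3 h, and 0 in all 4 libraries at 6 h.

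Of the FOS genes, Fos had 70 and 59 counts without IAA against 18 and 41 with IAA at 0 h, 69 and 31 against 10 and 42 at 3 h, and 28 and 27 against 34 and 17 at 6 h. Its −IAA libraries lay above the +IAA libraries at 0 h and overlapped them at 3 and 6 h. The fold change was −1.20 ± 0.69 at 0 h, −1.15 ± 0.69 at 3 h and −0.19 ± 0.70 at 6 h on the log2 scale. The 95% interval at 3 h, −2.62 to 0.33, holds both no change and the Egr1 change, so at these counts a Fos change like that of Egr1 was not detectable. At 3 h Fosl2 was at −0.11 (interval −1.15 to 0.93) and Fosb at −0.12 (interval −1.46 to 1.22).

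The members with more counts gave narrow intervals. Ier2 changed by −0.10 ± 0.07 at 3 h on the log2 scale, with a 95% interval of −0.26 to 0.06. Jun, the main partner of FOS in AP-1, was at 0.16 ± 0.22 (interval −0.32 to 0.64) and Junb, a weaker activator of the same family, at −0.12 ± 0.15 (−0.44 to 0.21). Ier3 was at 0.30 ± 0.14 (−0.01 to 0.60), with 383 and 507 counts without IAA and 683 and 567 with IAA. At 0 h the Ier3 value was −0.31 ± 0.14, with an unadjusted p of 0.038 and an adjusted p of 0.58.

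**Figure D2:**
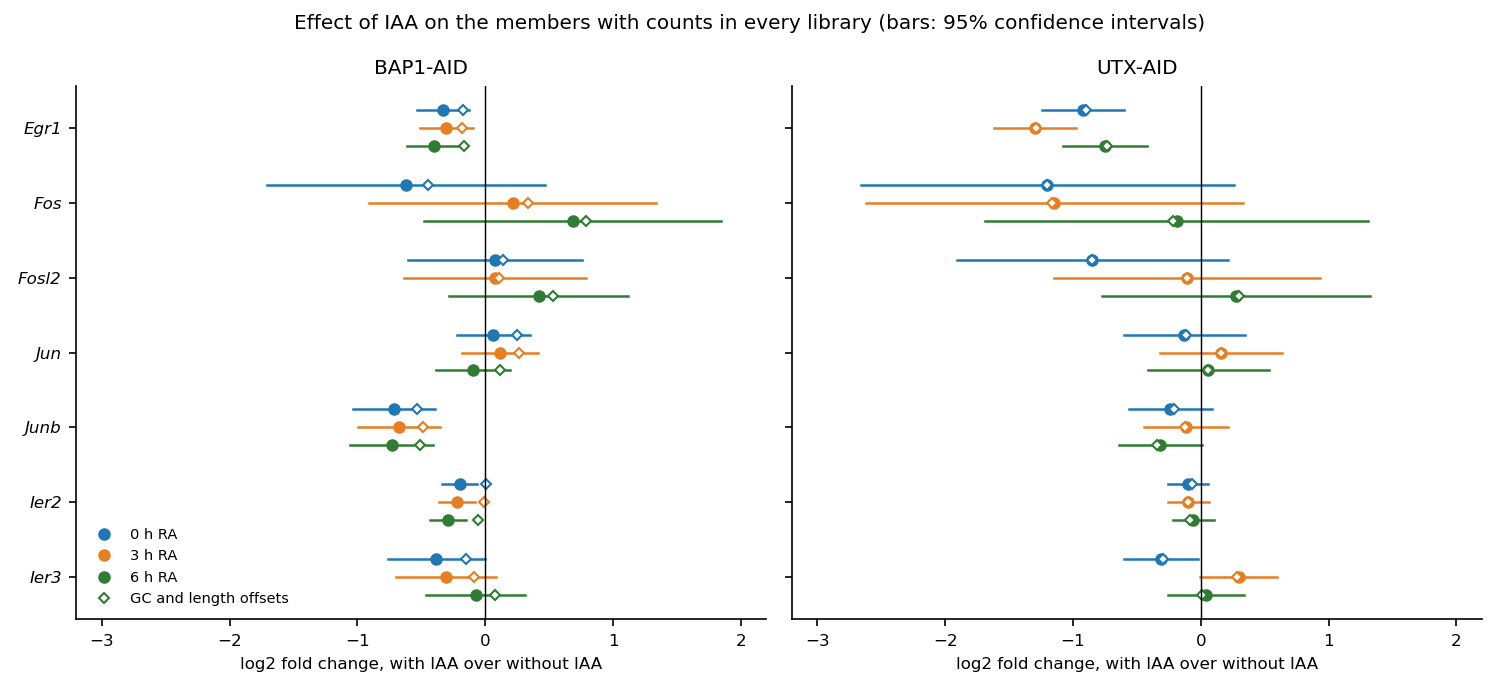
Filled points are log2 fold changes of +IAA over −IAA with 95% confidence intervals, by RA time, for the 7 members with counts in every library; open diamonds are the values after offsets for GC content and transcript length. Egr1 lies at −0.75 to −1.30 in UTX-AID with its diamonds on the points, while in BAP1-AID the diamonds of Egr1, Junb and Ier2 lie nearer to 0 than the points.

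In the BAP1-AID clone Egr1, Junb and Ier2 were lower with IAA by small amounts, no member passed as higher, and with offsets for GC content and length Egr1 and Ier2 no longer passed and Ier2 at 0 h turned sign. The lower members were 3 of 10 at 0 h (6.66% of 15695 genes lower, 11.8% higher), 2 of 10 at 3 h (4.6% lower, 8.68% higher) and 3 of 10 at 6 h (5.73% lower, 6.73% higher). None of the fold changes that passed exceeded 1 on the log2 scale. These shares rest on 10 genes.

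Junb moved most among them. It had 446 and 493 counts without IAA and 325 and 241 with IAA at 0 h, 513 and 544 against 349 and 292 at 3 h, and 452 and 480 against 282 and 283 at 6 h. The groups did not overlap at any time. The log2 fold changes were −0.71 ± 0.15 (adjusted p = 0.0049), −0.67 ± 0.15 (adjusted p = 0.012) and −0.73 ± 0.15 (adjusted p = 0.0064) by edgeR. Prdx2, which lies across Junb on the other strand, was not separated from it.

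Egr1 had 1907 and 2016 counts without IAA against 1629 and 1452 with IAA at 0 h, 1159 and 1280 against 976 and 931 at 3 h, and 934 and 993 against 810 and 663 at 6 h. These are again groups without overlap, at a smaller distance than in UTX-AID. The fold changes were −0.33 ± 0.09 (adjusted p = 0.027), −0.31 ± 0.09 (adjusted p = 0.053) and −0.40 ± 0.10 (adjusted p = 0.017), so 0 and 6 h passed. Ier2 had 5865 and 5602 counts against 4830 and 4989 at 0 h, 6532 and 7297 against 5672 and 5795 at 3 h, and 6429 and 6600 against 5387 and 5332 at 6 h. Its fold changes were −0.20 ± 0.06 (adjusted p = 0.048), −0.22 ± 0.06 (adjusted p = 0.040) and −0.29 ± 0.06 (adjusted p = 0.010).

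These 3 genes are GC-rich, with 62.6% GC in Junb, 60.9% in Ier2 and 57.3% in Egr1. After offsets for GC content and transcript length were fitted per library, Ier2 was at 0.0074, −0.012 and −0.060 at 0, 3 and 6 h (adjusted p = 0.98, 0.96 and 0.70) and Egr1 at −0.18, −0.19 and −0.17 (adjusted p = 0.23, 0.24 and 0.31). Junb was at −0.53, −0.49 and −0.51 (adjusted p = 0.039, 0.071 and 0.055), so it passed at 0 h alone. The same offsets left Egr1 in UTX-AID at −0.90, −1.29 and −0.73. Such offsets take out any change linked to GC content or length. A trend from library preparation and one in the cells cannot be told apart by them. Leaving out single libraries also ended calls in BAP1-AID: Junb was at −0.55 (adjusted p = 0.062) at 0 h and −0.55 (adjusted p = 0.11) at 3 h without +IAA replicate 2. At 6 h Junb was at −0.71 (adjusted p = 0.051) without −IAA replicate 2 and −0.70 (adjusted p = 0.061) without +IAA replicate 1. The Egr1 call ended at 0 h without −IAA replicate 2, +IAA replicate 1 or +IAA replicate 2 and at 6 h without −IAA replicate 1, −IAA replicate 2 or +IAA replicate 2, with adjusted p up to 0.175 and 0.168. The Ier2 calls at 0 and 6 h ended without any 1 of the 4 libraries and that at 3 h without either +IAA library, with adjusted p up to 0.324.

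The other 7 members did not pass in BAP1-AID. Jun was at 0.06, 0.11 and −0.10 on the log2 scale at 0, 3 and 6 h, and Fos at −0.62 ± 0.50, 0.21 ± 0.52 and 0.68 ± 0.53. Fosb went from 0 and 0 counts without IAA to 12 and 8 with IAA at 0 h (at least 3.41-fold higher) and from 16 and 16 to 0 and 0 at 6 h (at least 5.28-fold lower). Both replicates were thus at 0 together in opposite arms at different times, in counts that StringTie derives from coverage, and a listed 0 can be an estimate that failed. Fosb did not pass by edgeR at either time (adjusted p = 0.12 and 0.10), but it passed at both (adjusted p = 0.011 and 0.0075) when all 24 libraries were fitted together.

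The difference between the clones in the IAA effect was tested in a fit of all 24 libraries (16816 genes). At 0 h, 2 of 10 members passed, Egr1 and Fosb, against a background of 11.8% of genes in either direction. The Egr1 change was lower in UTX-AID than in BAP1-AID by 0.61 ± 0.17 (adjusted p = 0.024, edgeR). The call was lost without BAP1-AID −IAA replicate 1 (−0.55, adjusted p = 0.10), BAP1-AID +IAA replicate 1 (−0.56, 0.090), UTX-AID −IAA replicate 1 (−0.50, 0.11) or UTX-AID +IAA replicate 2 (−0.54, 0.11). At 3 h, where the choosing libraries enter, Egr1 was the 1 member that passed, at −0.998 (background 7.35%), and this is a description. At 6 h the Egr1 difference was −0.38 ± 0.18 (adjusted p = 0.25) and 2 members passed, Egr3 and Fosb (background 7.36%), both with groups at 0 counts. Junb, lower with IAA in BAP1-AID alone by the threshold, was not shown to differ between the clones, at 0.46 ± 0.21, 0.55 ± 0.21 and 0.38 ± 0.21 for the 3 times (adjusted p = 0.18, 0.11 and 0.34).

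The second comparison asks how these genes moved with RA. Egr1 fell with RA in BAP1-AID in both arms and did not rise past the test in any arm. Its mean level without IAA went from 38.2 ± 2.2 CPM (SD, n = 2) at 0 h to 24.4 ± 0.49 at 3 h and 19.1 ± 0.43 at 6 h, and with IAA from 30.8 ± 1.3 to 19.8 ± 0.73 and 14.7 ± 1.7. The libraries of the 3 times did not overlap in either arm. It fell by 0.63 ± 0.09 at 3 h and by 0.98 ± 0.09 at 6 h without IAA (adjusted p = 0.00097 and 1.8e-05, edgeR), and by 0.61 ± 0.09 and 1.05 ± 0.10 with IAA (adjusted p = 0.0014 and 1.0e-05). In UTX-AID without IAA the 3 h libraries, which entered the choice of Egr1, overlapped those at 0 h (0.07 ± 0.15), and this is a description. At 6 h Egr1 fell there by 0.66 ± 0.15 (adjusted p = 0.011). That last call was lost without the 0 h replicate 1 (−0.54, adjusted p = 0.10) or the 6 h replicate 2 (−0.52, adjusted p = 0.15). With IAA in UTX-AID it was at −0.49 ± 0.15 at 6 h (adjusted p = 0.082).

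Fos went from 65 and 80 counts at 0 h to 33 and 31 at 3 h, then 16 and 23 at 6 h, without IAA in BAP1-AID. It fell by 1.84 ± 0.53 at 6 h on the log2 scale (adjusted p = 0.033), and the call was lost when any 1 of the 4 libraries was left out, with the change at −1.62 without 6 h replicate 1 (adjusted p = 0.19), −1.66 without 0 h replicate 2 (0.13), −2.10 without 6 h replicate 2 (0.10) and −2.02 without 0 h replicate 1 (0.072). In UTX-AID without IAA the Fos counts went from 70 and 59 to 28 and 27 at 6 h, which did not pass. Fosl2, Jun and Junb did not pass at 3 or 6 h over 0 h in any arm. With the GC and length offsets Jun passed at 3 h in BAP1-AID, at −0.50 without IAA (adjusted p = 0.035) and −0.49 with IAA (adjusted p = 0.039).

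Of the Ier genes, Ier3 fell in both clones without IAA. Ier2 rose in BAP1-AID and did not pass in any UTX-AID arm by edgeR, while DESeq2 passed it there at 3 h without IAA. Ier3 had 945 and 1100 counts at 0 h, 383 and 507 at 3 h and 672 and 605 at 6 h in UTX-AID without IAA. It was lowest at 3 h and lay between at 6 h. The change was −1.12 ± 0.14 by 3 h (adjusted p = 0.00011) and −0.65 ± 0.14 by 6 h (adjusted p = 0.0072). In BAP1-AID without IAA, Ier3 went from 712 and 545 counts to 440 and 333 at 3 h and 405 and 370 at 6 h, a change of −0.64 ± 0.18 at both times (adjusted p = 0.048 and 0.026). The BAP1-AID calls were lost without 0 h replicate 1, at −0.46 (adjusted p = 0.32) and −0.48 (adjusted p = 0.21), as well as without 0 h replicate 2 or 3 h replicate 2 at 3 h and without either 6 h library at 6 h (adjusted p up to 0.18). The UTX-AID call at 6 h was lost without 0 h replicate 2 (−0.56, adjusted p = 0.079) or 6 h replicate 2 (−0.49, adjusted p = 0.12), and that at 3 h kept its side of the threshold under each omission. Ier2 in BAP1-AID rose by 0.32 ± 0.06 at 3 h and 0.24 ± 0.06 at 6 h without IAA (adjusted p = 0.0078 and 0.026) and by 0.30 ± 0.06 at 3 h with IAA (adjusted p = 0.013). The 6 h call was lost without any 1 of its 4 libraries (adjusted p up to 0.126) and the +IAA call without +IAA 0 h replicate 1 or either 3 h library (up to 0.172). With the GC and length offsets these rises were 0.21, 0.21 and 0.19 (adjusted p = 0.10, 0.066 and 0.15).

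**Figure D3:**
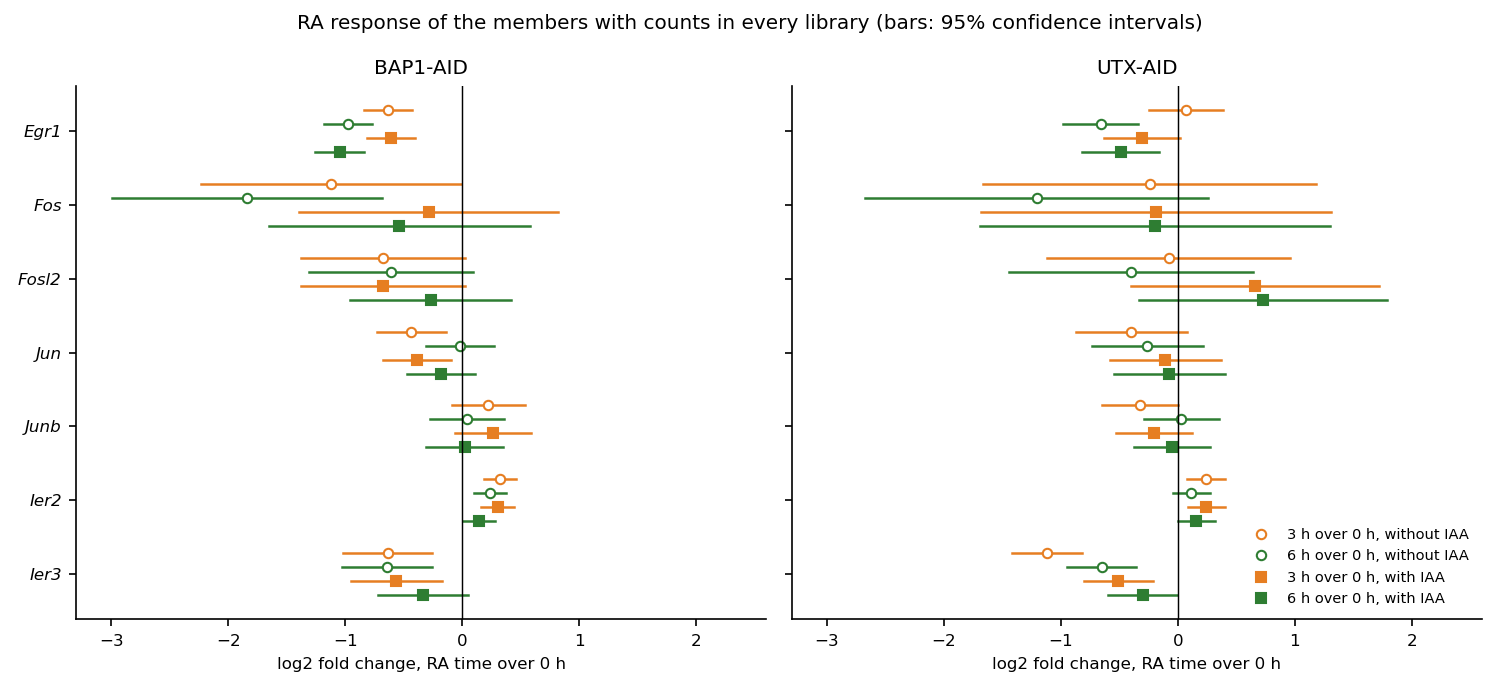
Points are log2 fold changes of 3 or 6 h of RA over 0 h with 95% confidence intervals for the 7 members with counts in every library, open circles without IAA and filled squares with IAA. Egr1 lies left of 0 in all 4 BAP1-AID comparisons (−0.61 to −1.05) and Ier2 lies right of 0 in both clones.

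By counts, 2 members were lower and 1 higher at 3 h in BAP1-AID without IAA (1.85% of genes lower, 5.51% higher), and 3 lower and 1 higher at 6 h (5.08% lower, 10.8% higher). With IAA, 1 was lower and 1 higher at 3 h (1.91% lower, 4.61% higher) and 1 lower at 6 h (6.44% lower, 8.93% higher). By DESeq2, 5 members passed at 6 h without IAA, with Fosb in addition (0 and 0 counts at 0 h, 16 and 16 at 6 h). With IAA at 3 h DESeq2 passed 3, with Egr2 in addition (24 and 12 counts at 0 h, 0 and 0 at 3 h). Both additions rest on a group at 0 counts. In UTX-AID without IAA, 1 of 9 was lower at 3 h (1.28% lower, 3.56% higher) and 2 of 9 at 6 h (2.62% lower, 4.28% higher). With IAA, 0 of 9 passed by edgeR at 3 h (0.799% lower, 2.77% higher), with 3 at an unadjusted p under 0.05 and 1, Ier3, passed by DESeq2. At 6 h 0 of 9 passed again (2.4% lower, 4.05% higher), with 2 at an unadjusted p under 0.05 and 0 by DESeq2. In the same libraries Cyp26a1, the RA-degrading enzyme that RA induces, rose by 7.81 ± 0.09 in BAP1-AID and 7.75 ± 0.32 in UTX-AID by 3 h without IAA.

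An altered RA response with IAA was tested as the interaction of arm and time. No member passed by edgeR in BAP1-AID at 3 h (background 0% of genes in either direction) or 6 h (0.153%), or in UTX-AID at 3 h (0.0123%) or 6 h (0%). Unadjusted p-values under 0.05 were held by 2 members (Egr2 and Fosb), 1 (Fosb), 1 (Ier3) and 0 members in the same order, and DESeq2 passed 0 in each. The Ier3 interaction in UTX-AID at 3 h was 0.61 ± 0.20 on the log2 scale (interval 0.19 to 1.03, adjusted p = 1.00). In BAP1-AID the Egr1 interaction was 0.02 ± 0.13 at 3 h and −0.07 ± 0.13 at 6 h, and in UTX-AID it was 0.17 ± 0.21 at 6 h (interval −0.28 to 0.63). Differences between the clones in the RA response also passed for 0 of 10 members by edgeR at 3 h (0.262% of genes) and 6 h (0.505%), with 3 and 2 members at an unadjusted p under 0.05. DESeq2 passed Egr1 at 3 h, where the choosing −IAA libraries of UTX-AID enter, so that this is a description, and Fosb at 6 h.

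The clones were also compared with each other without IAA. At 0 h, 5 of 10 members passed, against 52.6% of genes in either direction. At 3 h 5 of 10 passed (52.3%), with Egr1 among them, and at 6 h 4 of 10 (51.7%), so the members differed about as often as genes in general. Jun had 626 and 576 counts at 0 h in BAP1-AID against 258 and 207 in UTX-AID, and was lower in UTX-AID by −1.28 ± 0.18 at 0 h, −1.24 ± 0.18 at 3 h and −1.51 ± 0.18 at 6 h on the log2 scale (adjusted p = 1.9e-06, 4.2e-06 and 2.3e-07, edgeR). Egr1 was lower by −1.09 ± 0.12 at 0 h and −0.76 ± 0.13 at 6 h (adjusted p = 7.9e-08 and 2.0e-05). At 3 h, where the choosing −IAA libraries of UTX-AID enter, it was at −0.38 ± 0.12, and this is a description. The 3 h value was −0.29 without UTX-AID −IAA replicate 1. Ier2 was lower by −0.59 ± 0.07, −0.67 ± 0.07 and −0.70 ± 0.07. Ier3 was higher in UTX-AID by 0.79 ± 0.16 at 0 h and 0.79 ± 0.17 at 6 h (adjusted p = 0.00026 and 0.00034), and at 3 h Junb was lower there by −0.65 ± 0.15 (adjusted p = 0.00073). Fosb had 28 and 27 counts in UTX-AID against 0 and 0 at 0 h, at least 9.74-fold higher. The 9 heat shock genes, which stress can raise together with immediate early genes, summed to 7897 to 8480 CPM in BAP1-AID −IAA and 11890 to 14240 CPM in UTX-AID −IAA. That gap lay in Hsp90aa1, at 1181 to 1520 CPM against 5537 to 7425 CPM, while the other 8 genes summed to 6523 to 7127 CPM against 6348 to 6848 CPM. With IAA Hsp90aa1 was higher in BAP1-AID, at 1913 to 2512 CPM, and in UTX-AID it overlapped the −IAA arm, at 5812 to 6076 CPM. The part of the heat shock genes in the clone difference or in the IAA changes was not tested.

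The rest of the pathway was described with lists of genes. No gene of the 5 lists changed by over 1 on the log2 scale with IAA while passing, in either clone. In UTX-AID, 0 of 15 tested relatives and partners of the members, 0 of 26 other immediate early genes, 0 of 7 genes for SRF, its cofactors and CREB and 0 of 15 ERK cascade kinases passed at 0, 3 or 6 h. Of 10 ERK feedback and output genes, 1 passed, Dusp6, the phosphatase that inactivates ERK and is itself induced by it. With the GC and length offsets 2 of these 10 passed as lower at 3 h, and 0 passed at 0 or 6 h. Dusp6 had 3024 and 3875 counts without IAA and 2871 and 2827 with IAA at 3 h, a change of −0.47 ± 0.09 (adjusted p = 0.041). It was not lower by that amount at 0 h (3213 and 2901 against 3155 and 2931) or at 6 h (2957 and 3005 against 2897 and 2939).

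In BAP1-AID, 5 of the 26 other immediate early genes passed as lower with IAA at each time and 0 as higher, read against the 6.66%, 4.6% and 5.73% of all genes lower and 11.8%, 8.68% and 6.73% higher at 0, 3 and 6 h. With the GC and length offsets the counts were 3, 3 and 2 lower and 1, 1 and 2 higher. Nr4a1, an orphan nuclear receptor of this class, was lower by −0.84 ± 0.15 at 0 h, −0.80 ± 0.15 at 3 h and −0.58 ± 0.15 at 6 h (adjusted p = 0.0016, 0.0065 and 0.026), and with the offsets it was at −0.63, −0.62 and −0.34 (adjusted p = 0.015, 0.033 and 0.19). Per1, a clock gene that CREB can induce, was lower by −0.53 ± 0.10, −0.56 ± 0.10 and −0.60 ± 0.10, and at −0.44, −0.48 and −0.43 with the offsets (adjusted p = 0.0064, 0.012 and 0.0092). Per1 therefore passed at all 3 times in both fits and Nr4a1 lost its call at 6 h.

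Of the 15 tested relatives and partners, 3, 1 and 3 were lower and 1 was higher at each time, Atf2, against the same background shares. With the offsets 1, 0 and 0 were lower and 0 higher. Nab2, a repressor of EGR proteins that EGR1 induces, was lower by −0.44 ± 0.12, −0.52 ± 0.13 and −0.51 ± 0.13, and at −0.31, −0.41 and −0.26 with the offsets (adjusted p = 0.16, 0.089 and 0.26). Creb1, which binds the CRE, was the 1 of 7 genes of its list that passed, higher by 0.76 ± 0.09 at 0 h, and with the offsets it was at 0.18 there (adjusted p = 0.24). Of the 15 ERK cascade kinases, 4, 4 and 2 were higher and 1, 2 and 4 lower. All genes also moved both ways, with 11.8%, 8.68% and 6.73% higher and 6.66%, 4.6% and 5.73% lower. Braf was among the higher kinases (0.62 ± 0.07 at 0 h) and Mapk3, which encodes ERK1, among the lower at 3 h (−0.30 ± 0.07). With the offsets 1, 1 and 2 were higher and 0, 1 and 0 lower, with Braf at 0.16 at 0 h (adjusted p = 0.27) and Mapk3 at −0.089 at 3 h (adjusted p = 0.47). Of the 10 ERK feedback and output genes, 1, 1 and 0 were higher and 2, 0 and 0 lower, against the same shares. The offsets gave 2, 0 and 0 higher and 0 lower at each time.

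With RA, genes of the same class moved in both directions. In BAP1-AID without IAA at 3 h, 7 of 26 other immediate early genes were higher and 8 lower (5.51% of all genes higher, 1.85% lower), and in UTX-AID 6 were higher and 5 lower (3.56% higher, 1.28% lower). Plk3, a stress kinase, rose by 1.59 ± 0.08 in BAP1-AID and 1.02 ± 0.12 in UTX-AID at 3 h without IAA (adjusted p = 7.5e-08 and 3.7e-05), and Phlda1 rose by 1.48 ± 0.17 and 1.18 ± 0.19. Gadd45b, a growth arrest gene, rose by 1.45 ± 0.17 in BAP1-AID. Nr4a3, a nuclear receptor of this class, went from 0 and 6 counts to 34 and 31 there (3.43 ± 0.92, adjusted p = 0.043). Sgk1, a serum-induced kinase, fell by 1.34 ± 0.08 at 6 h in BAP1-AID and Trib1, a pseudokinase, fell by 1.23 ± 0.11. Dusp5, a nuclear ERK phosphatase, rose by 1.62 ± 0.11 in BAP1-AID and 1.45 ± 0.24 in UTX-AID at 3 h, and Rps6ka4, which encodes the ERK-activated kinase MSK2, by 1.096 ± 0.13 and 1.07 ± 0.20. Of the members' relatives, Ier5l rose by 1.29 ± 0.14 at 3 h in BAP1-AID, and with IAA Jund rose by 1.03 ± 0.08 at 3 h while Ier5 fell by 1.14 ± 0.17 at 6 h. Dusp4, an ERK phosphatase, fell by 1.10 ± 0.09 at 6 h in that arm. For SRF, its cofactors and CREB, 0 of 7 passed at 3 h in any arm by edgeR.

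Across the 24 libraries, after the mean of each clone was subtracted from log2 CPM, the members correlated with Egr1 to different degrees. The Pearson correlation with Egr1 was 0.603 for Fos, 0.497 for Egr3, 0.461 for Egr2, 0.351 for Ier3, 0.323 for Junb, 0.249 for Fosl2, 0.162 for Jun, 0.016 for Fosb and 0.0099 for Ier2. The genes most like Egr1, among 9818 non-member genes with a mean of at least 5 CPM, were Flnc (0.917), Lamb1 (0.896), Sparc (0.893), Pcdh1 (0.893) and Zscan10 (0.890), which encode a filamin, a laminin chain, a matrix protein, a protocadherin and a zinc finger protein. Those most like Fos were Pla2g7 (0.747), Mmp14 (0.730), Cdhr1 (0.727), Zfp946 (0.721) and Kirrel (0.712). These are descriptions over libraries that share RA time, arm and depth, and they include the UTX-AID libraries at 3 h by which Egr1 was chosen. Egr2, Egr3, Fos, Fosb and Fosl2 had small counts. Whether that lowered their correlations was not tested.

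The spread between replicates was set beside that of other genes. The mean absolute difference between the 2 libraries of a group on the log2 CPM scale was 0.159 for Egr1, against a median of 0.145 for tested genes of like mean level. It was 0.130 against 0.207 for Junb, 0.0707 against 0.0890 for Ier2, 0.202 against 0.209 for Jun and 0.228 against 0.176 for Ier3. For Fos it was 0.726 against 0.633, so Fos varied more between replicates than the members with more counts.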

How the data were processed

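RNA-seq was performed on 24 libraries of BAP1-AID and UTX-AID mouse ESCs, 2 in each of 12 groups of clone, IAA arm and hours of RA taken from the labels. The authors aligned reads to mm39 with HISAT2 2.2.1, used Samtools 1.19 and made the deposited expected counts per gene with StringTie 2.2.1, which derives them from coverage. They are whole numbers, without normalization or filter. The annotation and strandedness are not given in the sources used here. The authors tested with DESeq2.

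The tests used edgeR 4.0.16 under R 4.3.3, with DESeq2 1.42.0 as an alternative. Genes were kept by filterByExpr (minimum count 10, minimum total 15), scaled with TMM and tested with the quasi-likelihood test, clones fitted apart (15695 genes in BAP1-AID, 16268 in UTX-AID), with Benjamini-Hochberg adjustment over all genes of the fit. A gene passed at an adjusted p under 0.05, and "±" marks the SE of a log2 fold change. Clone contrasts used 1 fit of all libraries (16816 genes). The biological coefficient of variation was 11.6% to 11.9%. GC and length offsets were splines (5 degrees of freedom) per library. The fits were tested on simulated data. Loci and promoters were read from GRCm39 with GENCODE vM39, in which 23897 table symbols (91.0%) matched. The promoter of 1 member is not reported here.

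The members, gene lists and alternatives were chosen with earlier results of these data known. All members are named. Of the pathway lists, every gene called with IAA was to be named, and otherwise counts with up to 4 called in the RA response by the size of the fold change. Genes most like Egr1 and Fos were the 5 with the highest Pearson correlation. Nr4a1, Per1, Nab2, Atf2, Creb1, Braf, Mapk3, Dusp6, Sgk1 and Trib1 were named after their values were seen. Same-numbered replicates did not deviate together (correlations −0.0389 to 0.0783), so the numbers were not used as pairs. Alternatives were DESeq2, RLE size factors, no filter, a replicate block, the offsets alone and with the block, all libraries in 1 fit, and each library left out. The offsets were applied to the pathway lists, and Hsp90aa1 set apart, after seeing the data.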

Additional observations from a re-analysis of the deposited data

Results flagged for a closer look

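The Egr1 change with IAA at 0 h differed between the clones by a test of the difference itself, at −0.607 (UTX-AID minus BAP1-AID, log2, adjusted p = 0.024, edgeR). The same test passed 11.8% of genes in either direction. With single libraries left out the Egr1 difference ranged from −0.688 to −0.504, and its call depended on single libraries, as given above. The 3 further differences of this kind rest on groups with 0 counts in both libraries, where the fitted size depends on the prior count and is no bound. Egr3 differed by −8.10 at 6 h (adjusted p = 0.011), where UTX-AID went from 23 and 12 counts to 0 and 0 with IAA and BAP1-AID from 12 and 8 to 22 and 15. Fosb differed by −6.55 at 0 h (adjusted p = 0.036), where BAP1-AID went from 0 and 0 to 12 and 8 counts and UTX-AID from 28 and 27 to 25 and 25. At 6 h Fosb differed by 7.07 (adjusted p = 0.031), where BAP1-AID went from 16 and 16 to 0 and 0 counts and UTX-AID from 40 and 23 to 44 and 28.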

How the results depend on the processing

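Of the 42 member changes that passed, all 42 stayed past the threshold with the replicate block, 41 with RLE size factors, 40 of 40 with DESeq2, 39 with no filter on low counts and 30 with GC and length offsets, and 120 of 188 values did when a library was left out. The 42 include the Egr1 values at 3 h that the choosing libraries enter, which are descriptions. These are its IAA change in UTX-AID, its difference between clones without IAA and that in the IAA effect. DESeq2 gave an adjusted p for 40 of the 42. Ier2 with IAA in BAP1-AID at 0 h turned from −0.20 to 0.0074 with the offsets and to 0.0064 with the offsets and replicate block. The number of members that passed for IAA in BAP1-AID was 1, 0 and 0 at 0, 3 and 6 h with the offsets, with or without the block (main 3, 2 and 3), and 1 at 3 h with no filter. For IAA in UTX-AID at 6 h it was 1 (main 0) with DESeq2, no filter or all libraries in 1 fit. For RA in UTX-AID −IAA at 3 h it was 2 (main 1) with DESeq2, the replicate block or offsets and block. With IAA at 3 h it was 2 with the replicate block and 1 with DESeq2, no filter, the offsets, offsets and block or 1 fit, and at 6 h 1 with either offsets or 1 fit (main 0). For RA in BAP1-AID +IAA, 1 fit gave 4 at 3 h (main 2) and 2 at 6 h (main 1), and 1 altered response at 6 h (main 0). For the clone difference in the IAA effect it was 1 at 0 h and 1 at 6 h with either offsets (main 2), and 0 at 6 h with DESeq2. For that in the RA response it was 1 at 3 h (DESeq2, offsets and block) and 1 at 6 h (DESeq2), against 0. Leaving out each library gave 0 to 2, 0 to 3 and 0 to 1 for IAA in BAP1-AID at 0, 3 and 6 h, 0 to 1 for IAA in UTX-AID at 0 h, 1 to 2 for RA in BAP1-AID −IAA at 6 h and +IAA at 3 h, and 0 to 2 for RA in UTX-AID −IAA at 6 h. For the clone difference in the IAA effect it gave 0 to 1, 1 to 2 and 0 to 2 at 0, 3 and 6 h, and for that in the RA response at 3 h 0 to 1. The lone library was taken to vary like the other groups. The cause of these shifts was not tested. The GC and length offsets remove a trend linked to GC content or length whatever its source. Depth limits Egr2, Egr3, Fos, Fosb and Fosl2, whose counts were at most 117.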
